A study of Mus musculus with 6 samples.

Results

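The comparison described here sets 3T3-L1 adipocytes that had received AICAR while they were being induced to differentiate against adipocytes differentiated without any compound. 3T3-L1 is a mouse embryonic fibroblast line that turns into fat cells in a hormone cocktail. The comparison uses 2 of the 6 arrays of the series, 1 for each condition, and each member is a gene whose difference between these 2 arrays can be read. AICAR adipocytes were kept for 3 days in induction medium with 0.5 mM AICAR, 10% fetal bovine serum, dexamethasone at 1 µmol/l, insulin at 1 µg/ml and the phosphodiesterase inhibitor IBMX at 115 µg/ml, and then for 3 days with insulin and no compound. Control adipocytes went through the same 6 days without the compound. The last 3 days of this schedule were thus without AICAR, and the labels give no separate time for the RNA. The other 4 arrays were adipocytes given 0.5 mM adenine by the same schedule, fibroblasts given 0.5 mM AICAR or 0.5 mM adenine for 3 days in 10% calf serum, and control fibroblasts. All 6 cultures are of this 1 line, and the labels name no genetic change and no batch.

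AICAR is a ribonucleoside that cells take up through nucleoside transporters and that adenosine kinase turns into a monophosphate, an AMP analogue that activates the AMP-activated protein kinase (AMPK). AMPK is the energy sensor that restrains fatty acid and cholesterol synthesis and favours fatty acid oxidation. Adipogenesis in this line runs from the early factors C/EBPβ and C/EBPδ to PPARγ and C/EBPα, which switch on genes of lipid uptake, lipid droplets and fat cell hormones. Type I interferons act through a receptor of 2 chains, IFNAR1 and IFNAR2, to switch on antiviral genes whose promoters hold the interferon-stimulated response element.

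Expression was read as log2 signal on Affymetrix whole-transcript arrays, and a difference is the log2 level of AICAR adipocytes minus that of control adipocytes, so that 1 is 2-fold. Of 19938 genes with a symbol of their own, 9969 had a mean level over the 6 arrays at or above the median of such means (log2 5.87) and were compared. The array medians over all probe sets were 5.43 for AICAR adipocytes and 5.49 for control adipocytes, and lay between 5.41 and 5.49 over the series. The median difference of the compared genes was -0.01 and their robust SD was 0.20, which is a spread over genes and not an error between cultures. With 1 array per condition there is no replicate check, no difference below has a test, and the precision of each value is set by there being so few arrays. Fewer cells of a type and less RNA per cell cannot be told apart in RNA from a whole culture.

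The fat cell markers went with the labelled state, although the cell type field of the labels reads fibroblasts for all 6 samples. All 3 adipocyte arrays held the fat cell hormone gene Adipoq (adiponectin) far above the fibroblast arrays, with log2 levels of 10.79 in AICAR adipocytes, 12.18 in adenine adipocytes and 10.64 in control adipocytes, against 4.05, 4.45 and 4.42 in AICAR, adenine and control fibroblasts. The fatty acid transporter Cd36 and the lipid droplet genes Cidec and Plin1 were placed in the same way, as the plot of fat cell genes shows. Among markers of other cell types with a value, 0 of 10 endothelial and 0 of 9 epithelial genes passed the filter on level. It was passed by 4 of 11 leukocyte, 5 of 11 muscle and 4 of 10 bone and cartilage genes. Over all genes with a symbol of their own it was passed by 9969 of 19938, and it uses all 6 arrays, fibroblasts included. The AICAR minus control adipocyte differences of these 4 bone and cartilage genes, among them Sox9, ranged from -0.14 to -0.03 (log2).

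Of the 9969 genes, 61 were at least 2-fold higher in AICAR adipocytes (0.612%) and 38 were at least 2-fold lower (0.381%). At 1.5-fold the counts were 180 higher (1.81%) and 185 lower (1.86%). A difference of at least 4-fold was seen for 5 higher and 2 lower genes. The 5 were Ifit1, Rtp4, Oasl2, Usp18 and Irgm1, all known as interferon-induced, and the 2 were Thrsp and Car3, both genes of lipid-laden fat cells. The higher and lower genes were placed differently on the scale, which choosing them by their difference from this control array can favour. Of the 61 higher genes, 30 had a control adipocyte level below the filter floor of 5.87, and 6 had an AICAR adipocyte level below it as well. Of the 38 lower genes, 0 had a control adipocyte level below the floor and 2 had an AICAR adipocyte level below it. These counts have no share over all compared genes beside them.

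**Figure D1:**
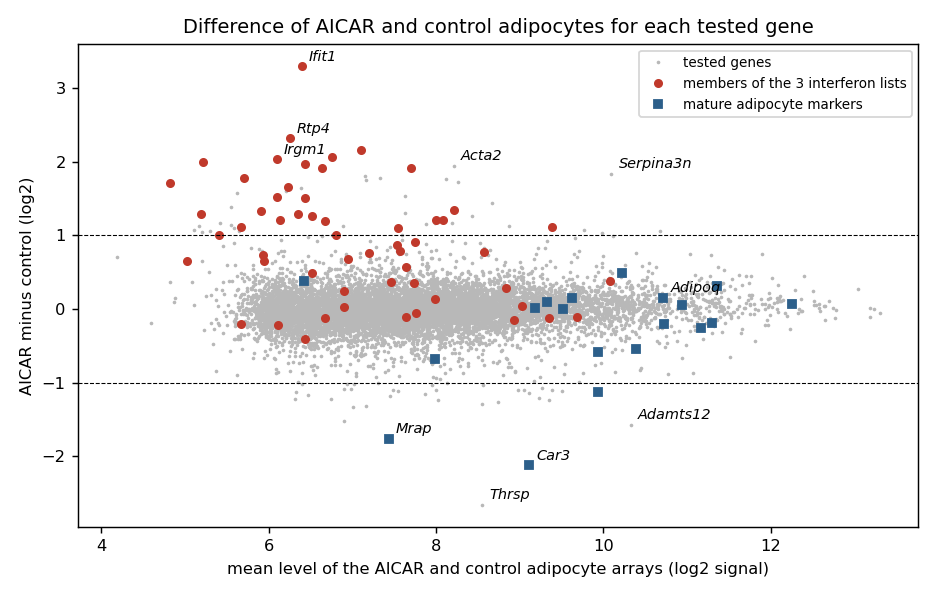
Each point is 1 of the 9969 compared genes, with the mean log2 signal of the AICAR and control adipocyte arrays on the horizontal axis and the AICAR minus control difference (log2) on the vertical axis, and dashed lines mark 2-fold. Members of the 3 interferon lists (red) hold the top of the plot with Ifit1 at 3.30, while most mature adipocyte markers (blue squares) lie near 0 and Mrap, Car3 and the lipogenic gene Thrsp lie below -1.

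The largest group among the higher genes was that of interferon-induced genes. Of 56 members of 3 interferon lists that passed the filter, 28 (50%) were at least 2-fold higher in AICAR adipocytes, beside 0.612% of all compared genes, and 0 passed 2-fold downward. All gene lists here were chosen with earlier results of these data known, so this share describes the lists and is not independent support. Of the 66 members that have a value at any level, 30 were at least 2-fold higher. Some of the 28 passed the filter through high fibroblast levels. Phf11d had log2 levels of 5.68, 4.23 and 3.97 in AICAR, adenine and control adipocytes, all below the filter floor. The 28 genes are part of the 61 higher genes. Because they recur in the results, the promoter windows of 4 of them that hold the response element are printed here, with that of Oasl2, a gene with a like difference whose window lacks these letters. The windows run from 250 bases before to 50 bases after the gene start in RefSeq on the build GRCm38.p6, and capitals mark the letters GAAANNGAAA or, for the other strand, TTTCNNTTTC. Ifit1 (chr19:34640639-34640938, plus strand) and Ifit3 (chr19:34583279-34583578, plus strand) lie close together and hold 2 matches each, the farthest of which start at -104 and -156 from the gene start. Irgm1 (chr11:48871371-48871670, minus strand) holds 2 matches that overlap, of which the outer starts at -30. Gbp7 (chr3:142530086-142530385, plus strand) holds 1 match, at -53, and the window of Oasl2 is chr5:114896684-114896983 on the plus strand.
Ifit1: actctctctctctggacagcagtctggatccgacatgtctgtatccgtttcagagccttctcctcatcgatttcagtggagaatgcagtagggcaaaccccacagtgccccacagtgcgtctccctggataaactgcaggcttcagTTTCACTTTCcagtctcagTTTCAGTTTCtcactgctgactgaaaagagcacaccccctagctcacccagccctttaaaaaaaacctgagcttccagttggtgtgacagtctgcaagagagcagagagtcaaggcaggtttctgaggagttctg
Ifit3: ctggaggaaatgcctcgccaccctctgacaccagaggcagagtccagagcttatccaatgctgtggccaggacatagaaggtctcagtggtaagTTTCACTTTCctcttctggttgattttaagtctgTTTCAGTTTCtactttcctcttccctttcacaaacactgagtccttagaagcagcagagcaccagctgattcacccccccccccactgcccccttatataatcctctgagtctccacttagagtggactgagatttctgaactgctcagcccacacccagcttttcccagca
Irgm1: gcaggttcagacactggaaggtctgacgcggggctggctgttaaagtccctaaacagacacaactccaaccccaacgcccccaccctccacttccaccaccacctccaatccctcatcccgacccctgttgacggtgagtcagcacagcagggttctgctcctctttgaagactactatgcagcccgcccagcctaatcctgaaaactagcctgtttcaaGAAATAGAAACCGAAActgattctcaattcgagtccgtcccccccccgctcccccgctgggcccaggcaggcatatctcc
Gbp7: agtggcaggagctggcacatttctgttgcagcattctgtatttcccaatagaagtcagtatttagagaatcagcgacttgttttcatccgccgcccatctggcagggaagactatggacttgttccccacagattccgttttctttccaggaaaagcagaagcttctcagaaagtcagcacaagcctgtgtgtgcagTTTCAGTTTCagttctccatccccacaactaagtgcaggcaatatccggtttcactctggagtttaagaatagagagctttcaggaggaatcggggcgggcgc
Oasl2: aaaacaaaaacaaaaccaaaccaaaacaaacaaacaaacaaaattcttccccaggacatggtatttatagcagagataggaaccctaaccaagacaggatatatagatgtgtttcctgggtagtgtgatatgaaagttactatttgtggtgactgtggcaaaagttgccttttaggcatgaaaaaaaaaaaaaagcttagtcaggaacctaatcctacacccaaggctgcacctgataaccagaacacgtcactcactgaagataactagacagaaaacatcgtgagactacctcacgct

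Of the 61 higher genes, 40 had a promoter window in the table, and 16 of these (40.0%) held the interferon-stimulated response element on either strand. The share was 1 of 28 (3.57%) for the lower genes with a window, 269 of 7999 (3.36%) for compared genes under 2-fold and 1079 of 27025 (3.99%) for all genes with a window. The 16 genes included Saa3, an acute-phase gene of no interferon list, whose match starts at -125. Windows of Herc6, Xaf1, Phf11d, Irf7 and Irf9 did not contain these letters. A match describes letters in a window of 300 bases and not a binding site, and no match says nothing of sites elsewhere.

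Ifit1, an antiviral protein that binds foreign RNA, had the largest difference of all compared genes. Its log2 level was 8.05 in AICAR adipocytes, 5.21 in adenine adipocytes and 4.75 in control adipocytes, a difference of 3.30 (9.84-fold). In AICAR, adenine and control fibroblasts Ifit1 stood at 10.51, 10.02 and 10.11. The AICAR adipocyte level thus lay between the other 2 adipocyte arrays and all 3 fibroblast arrays. Rtp4, an interferon-induced chaperone and negative regulator of the interferon response, had log2 levels of 7.41, 5.93 and 5.10 in AICAR, adenine and control adipocytes and 9.49, 8.94 and 8.97 in AICAR, adenine and control fibroblasts, so the order was the same. Its difference was 2.31 (4.97-fold).

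The 2'-5'-oligoadenylate synthetase-like gene Oasl2 was at 8.18 in AICAR adipocytes, 5.55 in adenine adipocytes and 6.03 in control adipocytes, a log2 difference of 2.15 (4.45-fold). Usp18, a protease that removes ISG15 and dampens signalling at the interferon receptor, was at 7.79, 6.39 and 5.73 in the same order of arrays, a difference of 2.06. In all 3 fibroblast arrays both genes stood higher than in AICAR adipocytes, Oasl2 between 10.06 and 10.23 and Usp18 between 9.31 and 10.04. Mx2, a dynamin-like antiviral GTPase, had a log2 level of 6.21 in AICAR adipocytes and 4.21 in control adipocytes, and Herc6, an E3 ligase for ISG15, had 7.59 and 5.68. Ifit3, the partner of Ifit1, had 6.60 in AICAR adipocytes, 4.88 in adenine adipocytes and 4.82 in control adipocytes, a difference of 1.78, and between 10.34 and 10.93 in fibroblasts. Even with AICAR, Ifit3 in adipocytes remained far under its fibroblast level.

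Over the list of interferon-stimulated genes, 29 of 40 members passed the filter, 18 of them were at least 2-fold higher, 24 at least 1.5-fold higher, and 27 lay above 0. Over all compared genes these shares were 0.612%, 1.81% and 47.4%. The median difference of the 29 members was 1.12, beside -0.01 for all compared genes. Over the 36 members that have a value at any level the median was 1.05 and 20 were at least 2-fold higher. The other named members past 2-fold were Phf11d (1.71), the apoptosis-related Xaf1 (1.65), the 2'-5'-oligoadenylate synthetase Oas2 (1.52), Trim30a (1.34) and Trim30d (1.28), the membrane tether Bst2 (1.21), the mitochondrial protein gene Ifi27l2a (1.20) and Ifi27 (1.12), Samd9l (1.09), the antiviral enzyme Rsad2 (1.00) and Parp14 (1.00), all log2 differences. Mx1 and the helicase Ddx60 did not pass the filter, with log2 levels of 5.40 in AICAR adipocytes and 3.84 in control adipocytes for Mx1, and with a log2 difference of 1.93 for Ddx60. Not every member was higher. Oasl1 had a log2 level of 6.24 in AICAR adipocytes and 6.65 in control adipocytes, and Oas1a 5.57 and 5.78. Isg20 and Znfx1 differed by 0.24 and 0.14. Members of the Ifit, Oas and Trim30 families are close in sequence, so probes may share signal between paralogues.

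The immunity-related GTPases and guanylate-binding proteins, which attack the vacuoles of intracellular pathogens and are known targets of interferon-γ as well, formed the list with the highest median. All 5 members that passed the filter, of 14 on the list, were at least 2-fold higher, beside 0.612% of all compared genes. The median of these members was 1.91, or 1.71 over the 6 with a value at any level. Irgm1 had a log2 level of 7.11 in AICAR adipocytes, 6.07 in adenine adipocytes and 5.08 in control adipocytes, against 9.57, 9.16 and 9.09 in AICAR, adenine and control fibroblasts. Its difference of 2.03 placed it among the genes past 4-fold. Iigp1 had 7.42 in AICAR adipocytes, 4.94 in adenine adipocytes and 5.45 in control adipocytes, and Gbp7 had 8.66, 6.96 and 6.75. The Gbp7 level in control adipocytes already exceeded the filter floor, and its difference was 1.91. Gbp3 had 7.18 in AICAR adipocytes and 5.68 in control adipocytes, Gbp9 differed by 1.21, and Gbp5, which did not pass the filter, had 3.94 in AICAR adipocytes and 3.54 in control adipocytes. These genes are close paralogues too.

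Sensors and signalling genes were more divided. Of 22 that passed the filter, 15 were above 0, beside 47.4% of all compared genes, and the median was 0.36. Upward 2-fold was passed by 5, beside 0.612% of all compared genes, and downward by 0. The 5 were Irf7 (1.33), the amplifying factor of type I interferon production, Irf9 (1.29), a DNA-binding factor of the type I interferon response, and the RNA sensors Dhx58 (LGP2, 1.26), Ddx58 (RIG-I, 1.21) and Ifih1 (MDA5, 1.11). Stat2 had a log2 level of 8.21 in AICAR adipocytes and 7.30 in control adipocytes. The receptor chain Ifnar1 had 9.05 in AICAR adipocytes and 9.01 in control adipocytes, and Ifnar2 had 8.99 and 8.70. Small differences were seen for Irf3 (0.02), Irf1 (-0.05), Ifngr1 (-0.11), Jak2 (-0.11), Tyk2 (-0.12) and Mavs (-0.13), and Socs1, a feedback inhibitor, stood at -0.22. The interferon-β gene Ifnb1 did not pass the filter and stood at a log2 level of 4.32 in AICAR adipocytes and 4.86 in control adipocytes. The interferon-γ gene Ifng, also under the floor, had 4.68 in AICAR adipocytes and 4.79 in control adipocytes.

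**Figure D2:**
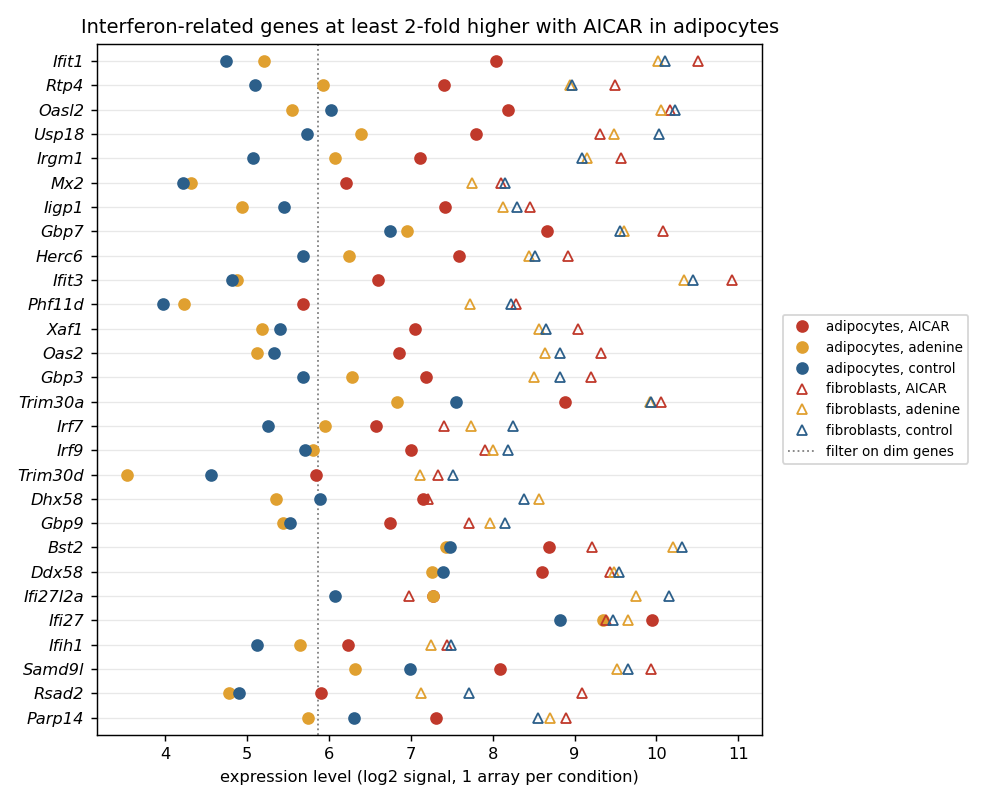
Log2 signal of the 28 interferon-related genes at least 2-fold higher with AICAR in adipocytes, 1 row per gene and 1 point per array, with circles for adipocytes, triangles for fibroblasts and a dotted line at the filter floor of 5.87. The AICAR adipocyte point lies right of the adenine adipocyte point in every row but that of Ifi27l2a, where these 2 points coincide. It lies right of the control point in all rows by the choice of these genes. That choice can favour the order against adenine too. In 26 rows the AICAR adipocyte point lies left of all 3 fibroblast points, a count that the filter over all 6 arrays can favour.

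The AICAR adipocyte level was above the adenine adipocyte array for all 28 genes, although for Ifi27l2a both levels were 7.28 when rounded. It was above the control adipocyte array in all 28 by the choice of these genes. That choice can favour the count against adenine too, which has no share over all compared genes beside it. For 26 of the 28 genes the AICAR adipocyte level was below the lowest fibroblast array, and the 2 exceptions were Ifi27 and Ifi27l2a. Ifi27 had 9.94 in AICAR adipocytes, against 9.38 to 9.66 in the fibroblasts. Among all 56 filtered members of the interferon lists, 44 had an AICAR adipocyte level below the lowest fibroblast array. Among the 61 higher genes of any kind this count was 47, and 6 lay above the highest fibroblast array. The filter takes the mean over all 6 arrays, so genes dim in adipocytes can pass it through high fibroblast levels. The counts below the fibroblasts may in part follow from that, and they have no share over all compared genes beside them. Where every level under 5.87 was raised to that floor, 19 of the 28 genes were still at least 2-fold higher, a setting chosen after the data were seen. Ifit1 then differed by 2.17, Rtp4 by 1.54 and Irgm1 by 1.24, while Ifit3 (0.72) and Mx2 (0.34) dropped under 2-fold. The size of these folds thus depends on how dim signal is treated.

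Genes of antigen presentation differed less. Of 15 genes of the major histocompatibility complex and antigen processing, 14 were above 0, beside 47.4% of all compared genes, with a median of 0.23. At least 2-fold higher was 1 of them, beside 0.612% of all compared genes. That 1 was the class I gene H2-Q4, at a log2 level of 5.65 in AICAR adipocytes and 4.57 in control adipocytes, both below the floor. The class I light chain B2m, an abundant transcript, had 12.27 in AICAR adipocytes and 11.52 in control adipocytes, and the peptide transporter Tap1 7.56 and 6.81. Cd74, the class II invariant chain, had 5.91 in AICAR adipocytes, 4.62 in adenine adipocytes and 4.93 in control adipocytes. In fibroblasts Cd74 had 4.46 with AICAR, 6.99 with adenine and 8.90 in the control. Leukocyte markers were measured beside these genes: 4 of the list's 11 members with a value passed the filter. The summed linear signal of the 11 was 899 in AICAR adipocytes and 938 in control adipocytes. Ncam1, which has the highest level of the 4 and weighs most in this sum, had a log2 level of 9.12 in AICAR adipocytes and 9.30 in control adipocytes. The other 3 lay above 0, Cd14 at 0.67, Cd68 at 0.28 and Lyz2 at 0.26. The pan-leukocyte gene Ptprc had a log2 level of 4.32 in AICAR adipocytes and 4.24 in control adipocytes, and the macrophage gene Adgre1 3.47 and 3.81, all under the floor.

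Chemokines and acute-phase genes formed the next group. Of 19 chemokine and inflammatory genes that passed the filter, 5 passed 2-fold upward, beside 0.612% of all compared genes, and 0 downward, beside 0.381%, but 8 lay below 0 and the median was 0.21. The monocyte attractants Ccl2 and Ccl7 lie side by side on the genome in the mouse. Ccl2 had a log2 level of 8.03 in AICAR adipocytes, 5.27 in adenine adipocytes and 6.29 in control adipocytes, a difference of 1.75. Ccl7 had 9.13, 6.49 and 7.41 in the same order, a difference of 1.72. The AICAR array was the highest of the 3 adipocyte arrays for both. Ccl5, which attracts T cells, differed by 1.53, Ccl9 by 1.30 and the neutrophil attractant Cxcl5 by 1.16. The interferon-inducible chemokine Cxcl10 had 6.03 in AICAR adipocytes and 5.14 in control adipocytes. In the other direction stood the B cell attractant Cxcl13, at 8.79 in AICAR adipocytes and 9.71 in control adipocytes, Cx3cl1 (-0.77) and the NF-κB inhibitor gene Nfkbia (-0.45). The cytokine gene Il6 did not pass the filter and had a log2 level of 3.96 in AICAR adipocytes and 2.24 in control adipocytes.

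Acute-phase proteins, secreted in inflammation by liver and fat, had a median of 0.70 over 7 genes, of which 3 were at least 2-fold higher, beside 0.612% of all compared genes. Over the 12 members with a value at any level the median was 0.40. Serpina3n, a protease inhibitor, had the largest difference of the list, with 11.01 in AICAR adipocytes, 10.52 in adenine adipocytes and 9.18 in control adipocytes on the log2 scale. In fibroblasts Serpina3n stood at 8.26 with AICAR, 6.66 with adenine and 6.32 in the control. The AICAR array was thus above its control in both states, by 1.83 in adipocytes and 1.93 in fibroblasts. Orm2 (orosomucoid) differed by 1.12, the serum amyloid gene Saa3 by 1.07 and haptoglobin (Hp) by 0.70, while Lcn2 (lipocalin), already at 12.17 in control adipocytes, differed by 0.26. The ferroxidase gene Cp had a difference of -0.13.

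Among the higher genes outside the immune lists, Acta2, the actin of smooth muscle and of activated fibroblasts, had the largest difference. Its log2 level was 9.19 in AICAR adipocytes, 6.03 in adenine adipocytes and 7.24 in control adipocytes, a difference of 1.95 (3.85-fold). In fibroblasts Acta2 stood at 9.66 with AICAR, 10.67 with adenine and 10.79 in the control, so the AICAR array was above its control in adipocytes and below it in fibroblasts. The rest of the contractile list did not share this size. Of its 21 members that passed the filter, 13 lay above 0, beside 47.4% of all compared genes, and the median was 0.12. Acta2 was the 1 member past 2-fold, beside 0.612% of all compared genes at least 2-fold higher. Fhl1 differed by 0.83, Tpm1 (tropomyosin) by 0.26 and Myl9 (myosin light chain) by 0.21, and at the other end Ccn1 (CYR61), a target of YAP and of the serum response factor, by -0.54. Tagln and Cnn1, further smooth muscle genes, did not pass the filter and had differences of 0.47 and -0.36. An exact match of the CArG box, to which the serum response factor binds, was found in 8 of 23 genes of this list with a promoter window (34.8%). The list was made in part of targets of this factor, and the share was 1.81% for all genes with a window. For the higher genes with a window it was 0 of 40, for the lower genes 0 of 28, and for compared genes under 2-fold 1.66%. Elements that depart from the consensus by a base, such as those known in the Acta2 promoter, were not counted. Muscle markers had a median of 0.00 over 5 genes and a summed linear signal of 581 in AICAR adipocytes and 578 in control adipocytes.

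Other named higher genes were Plac8 (1.81), Sp100 (1.65), a nuclear body protein known to be interferon-inducible that is on no list here, the corneodesmosin gene Cdsn (1.77), the phosphatase Ppef1 (1.57), the desaturase-family gene Fads3 (1.04), the insulin receptor adaptor Grb14 (1.01) and Aldh1l2 (1.17), a mitochondrial enzyme of one-carbon metabolism. Cdsn had a log2 level of 9.01 in AICAR adipocytes, 7.29 in adenine adipocytes and 7.24 in control adipocytes. Of the 61 higher genes, 41 belonged to some list, and 5 were passed over in the naming as predicted or clone-named genes.

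The lower genes were led by a few genes of lipid-storing fat cells, while the median of the mature adipocyte list was 0.00. Thrsp (Spot 14), a regulator of fatty acid synthesis, had a log2 level of 7.23 in AICAR adipocytes, 10.31 in adenine adipocytes and 9.89 in control adipocytes. This is a difference of -2.66, or 6.32-fold lower with AICAR. In AICAR, adenine and control fibroblasts Thrsp stood at 4.91, 4.48 and 5.00, so the AICAR adipocyte level lay between the other adipocytes and the fibroblasts. Car3, a carbonic anhydrase abundant in fat, had 8.05 in AICAR adipocytes, 9.34 in adenine adipocytes and 10.17 in control adipocytes, and 4.59, 4.59 and 4.77 in AICAR, adenine and control fibroblasts. Its difference was -2.12 (4.36-fold lower). Mrap, the accessory protein of the melanocortin 2 receptor, had 6.55, 9.51 and 8.32 in AICAR, adenine and control adipocytes, a difference of -1.76. Retn (resistin) had 9.38, 12.13 and 10.50, a difference of -1.13, and G0s2, an inhibitor of the triglyceride lipase ATGL, had 6.34, 8.42 and 7.68, a difference of -1.34. In these 5 genes, chosen as lower with AICAR than in the control, the AICAR array was the lowest of the 3 adipocyte arrays.

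**Figure D3:**
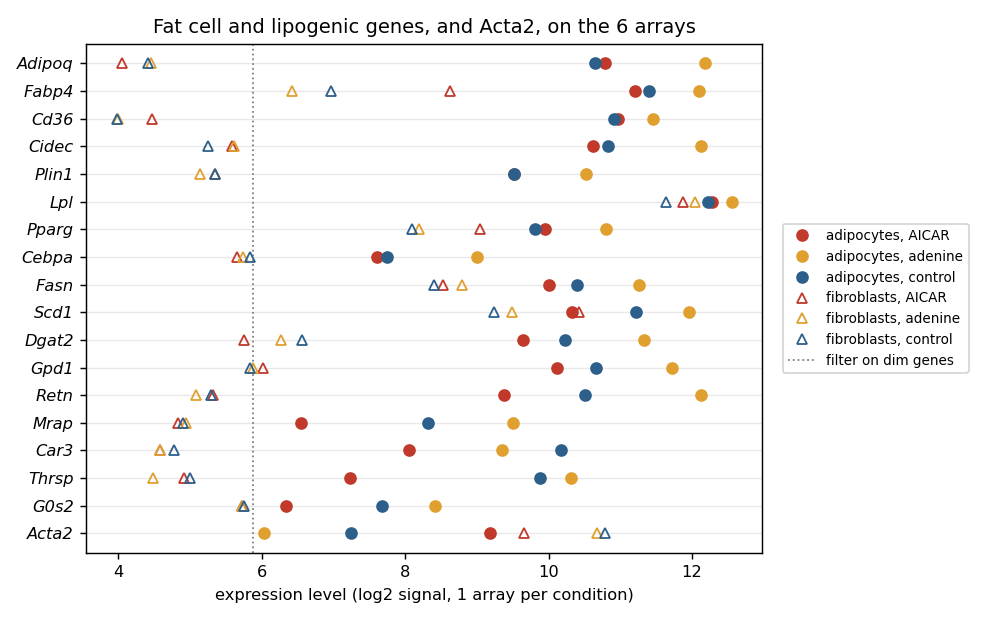
Log2 signal of 18 genes, 1 row per gene and 1 point per array, with circles for adipocytes, triangles for fibroblasts and a dotted line at the filter floor of 5.87. AICAR and control adipocytes nearly coincide for Adipoq, Cd36, Plin1, Lpl and Pparg, whereas Retn, Mrap, Car3, Thrsp and G0s2 are lower with AICAR and Acta2 is higher.

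Several other fat cell genes stood close to the control array. Adipoq differed by 0.15, the fatty acid binding protein Fabp4 by -0.19, the lipid droplet coat protein Plin1 by 0.00, Cidec by -0.20, Cd36 by 0.06 and lipoprotein lipase (Lpl) by 0.06, all log2 differences. Of 19 mature adipocyte markers that passed the filter, 9 lay above 0, beside 47.4% of all compared genes, and 10 below. The median was 0.00. Past 2-fold stood 3 on the lower side (Car3, Mrap and Retn), beside 0.381% of all compared genes, and 0 on the higher side, beside 0.612%. The lipoprotein gene Apoe was the fourth member at least 1.5-fold lower, with 7.65 in AICAR adipocytes and 8.33 in control adipocytes. Over the 27 members with a value at any level the median was -0.19. The lipase gene Pnpla2 (ATGL), the target of G0s2, was the highest of the list, with 10.48 in AICAR adipocytes and 9.98 in control adipocytes. Levels of the transcription factors were close too. Pparg had 9.95 in AICAR adipocytes and 9.81 in control adipocytes, and Cebpa 7.61 and 7.75. Of 19 adipogenic factors, 6 lay above 0 and 13 below, 0 were at least 2-fold different in either direction, and the median was -0.11. Klf5 (-0.73), Stat5b (-0.48) and Stat5a (-0.44) were the lowest, and Ddit3 (0.42) and Klf4 (0.23) the highest.

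Genes of lipid synthesis lay on both sides of 0. Of 24 genes of fatty acid and triglyceride synthesis, 10 lay above 0, beside 47.4% of all compared genes, and 14 below. The median was -0.06. Past 2-fold stood Thrsp alone on the lower side, beside 0.381% of all compared genes, and Fads3 alone on the higher side, beside 0.612%. The desaturase Scd1 had a log2 level of 10.33 in AICAR adipocytes and 11.22 in control adipocytes, the acyltransferase Dgat2 9.65 and 10.23, and fatty acid synthase (Fasn) 10.00 and 10.40. Acetyl-CoA carboxylase (Acaca), whose protein AMPK phosphorylates, differed by 0.08. Cholesterol synthesis and uptake had a median of -0.04 over 21 genes with 0 past 2-fold, and ranged from Cyp51 at -0.68 to Hsd17b7 at 0.26. The median was -0.01 over 20 genes of fatty acid oxidation, and for mitochondrial respiration and the citrate cycle it was 0.04 over 32, with 0 past 2-fold in both. Genes of AMPK subunits and regulators had a median of 0.00 over 17 genes, and those of purine synthesis, salvage and breakdown 0.01 over 25, again with 0 past 2-fold. With so few of all compared genes past 2-fold, a count of 0 sets lists of this size little apart from other genes. Adenosine kinase (Adk), which phosphorylates AICAR, had 8.35 in AICAR adipocytes and 8.52 in control adipocytes, and the salvage enzymes Hprt and Aprt differed by 0.11 and 0.07. The nucleoside transporter genes Slc29a1 and Slc29a3 differed by -0.07 and -0.73.

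The remaining lower genes had varied roles. Adamts12, a secreted metalloprotease, had a log2 level of 9.54 in AICAR adipocytes, 10.02 in adenine adipocytes and 11.12 in control adipocytes, a difference of -1.57. Egln3, a prolyl hydroxylase of the hypoxia response, differed by -1.32, while the median of the glycolysis and hypoxia list, to which it belongs, was -0.07 over 24 genes. Agtr2, the type 2 angiotensin receptor, had 7.91 in AICAR adipocytes, 6.46 in adenine adipocytes and 9.20 in control adipocytes, against 4.42, 7.67 and 6.89 in AICAR, adenine and control fibroblasts. The AICAR array lay between the other 2 adipocyte arrays. Further genes past 2-fold were Pwwp3b (-1.62), the aldehyde dehydrogenase Aldh3a1 (-1.52), the ascorbate transporter Slc23a2 (-1.26), Olfml2b (-1.23), the cadherin Cdh13 (-1.23), a receptor for adiponectin, the gastrin-releasing peptide receptor Grpr (-1.23), the stromal gene Islr (-1.18), Vav3 (-1.17), Eya1 (-1.16), Plekhh2 (-1.15), Fam107a (-1.11) and the sphingosine 1-phosphate receptor S1pr3 (-1.11). Of the 38 lower genes, 7 belonged to some list and 3 were passed over in the naming. An AICAR adipocyte level below the lowest fibroblast array was seen in 15 of the 38, and one above the highest in 12. These counts too have no share over all compared genes beside them.

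Members of the matrix and stromal lists lay mostly below 0. Fibrillar collagens and matrix had 9 members above 0 and 26 below with a median of -0.17, and 0 past 2-fold. Thbs2 (-0.86) and Mfap4 (-0.87) were the lowest, Col1a1 stood at -0.40, and Thbs1 (0.70) and fibronectin (Fn1, 0.42) were the highest. Matrix proteases and their inhibitors had a median of -0.22 over 19 genes, with Adamts12 past 2-fold and 3 at least 1.5-fold lower. TGF-beta, activin, BMP and Wnt genes had -0.22 over 23, of which 19 lay below 0. Stromal progenitor markers had -0.22 over 14, of which 12 lay below 0, Islr was past 2-fold and 3 were at least 1.5-fold lower. The preadipocyte receptor Pdgfra had a log2 level of 10.64 in AICAR adipocytes and 11.51 in control adipocytes, while Dlk1 (Pref-1), the inhibitor of adipogenesis, had 10.11 and 10.32 and Thy1 8.37 and 8.30. Glucocorticoid and cAMP responsive genes, the targets of the induction drugs, had a median of -0.19 over 24, of which 8 lay above 0. Fkbp5 (-0.83) and Dusp1 (-0.79) were the lowest, and the metallothioneins Mt1 (0.45) and Mt2 (0.45) the highest. Over all compared genes 47.4% lay above 0. At least 2-fold higher were 0.612% of them and at least 2-fold lower 0.381%, and 1.86% were at least 1.5-fold lower.

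**Figure D4:**
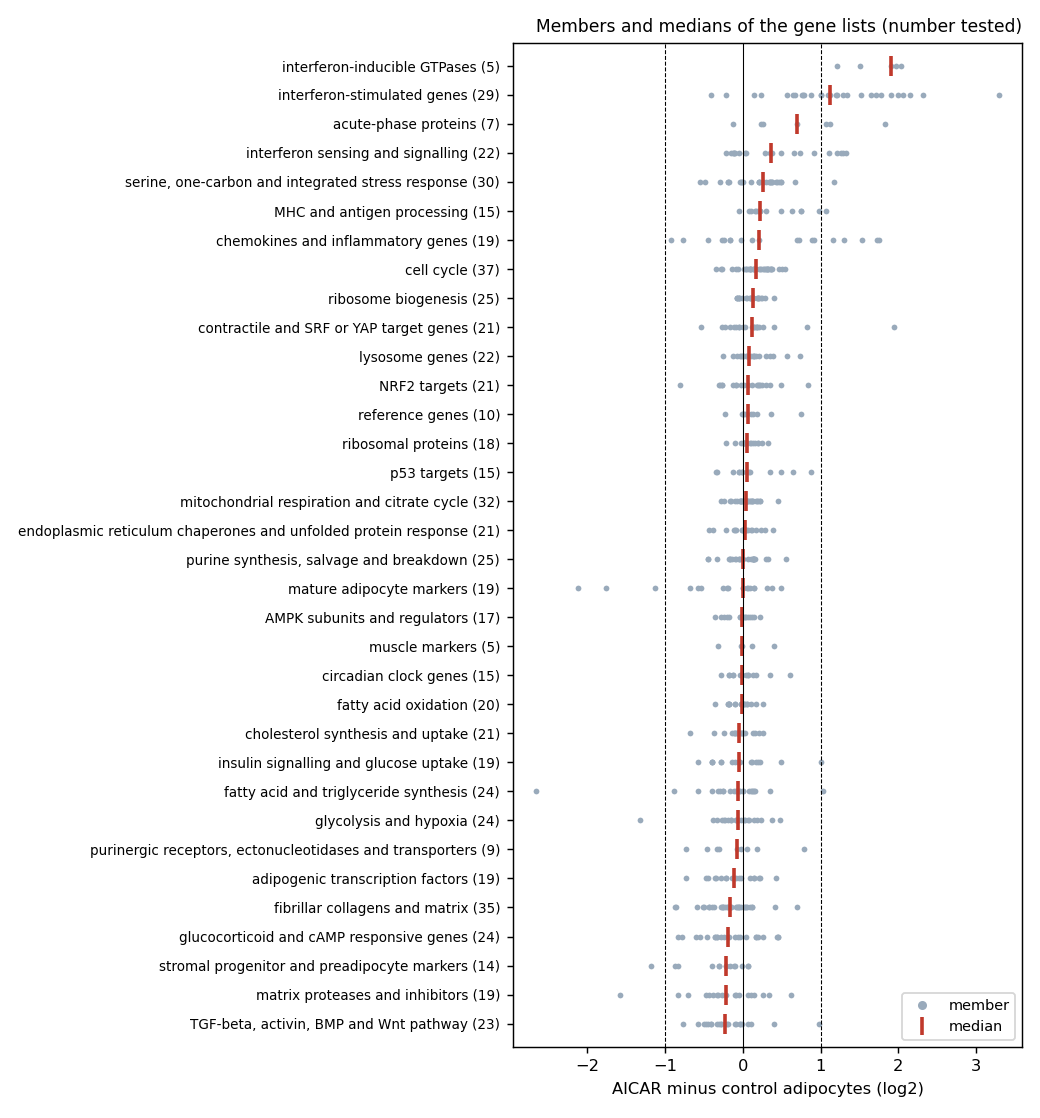
AICAR minus control adipocyte difference (log2, horizontal axis) of each member of the 34 gene lists with at least 5 compared genes (grey points) and the median of each list (red bar), with the number of genes in brackets and dashed lines at 2-fold. The interferon-inducible GTPases (median 1.91) and interferon-stimulated genes (1.12) stand at the top, followed by acute-phase proteins (0.70), and all other medians lie between -0.22 and 0.36.

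Fibroblasts had AICAR for 3 days with no period without it in the schedule, and no array is shared with the adipocyte comparison. There 169 genes (1.7%) passed 2-fold upward and 368 (3.69%) downward, and the robust SD of differences was 0.41. The interferon-stimulated list had a median of 0.13 in fibroblasts, where its members started from high levels, beside 1.12 in adipocytes. Ifit1 differed by 0.40 in fibroblasts, Oasl2 by -0.07, Usp18 by -0.73 and Mx2 by -0.05. Neither Thrsp (-0.09) nor Car3 (-0.18) differed by much in fibroblasts, where both were under the floor. Several lists that lay far from 0 in fibroblasts were closer to 0 in adipocytes. The serine, one-carbon and integrated stress list had a median of 0.26 in adipocytes and -1.23 in fibroblasts, the cell cycle list 0.18 and -0.52, and cholesterol synthesis -0.04 and 0.92. Acute-phase proteins lay above 0 in both, at 0.70 and 1.57. Of the 61 genes higher in adipocytes, 5 (8.20%) were also at least 2-fold higher in fibroblasts, where they are 2.96% of the higher genes. Of the 38 lower ones, 10 (26.3%) were at least 2-fold lower in fibroblasts too, where they are 2.72% of the lower genes. These differences between the states have no test.

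**Figure D5:**
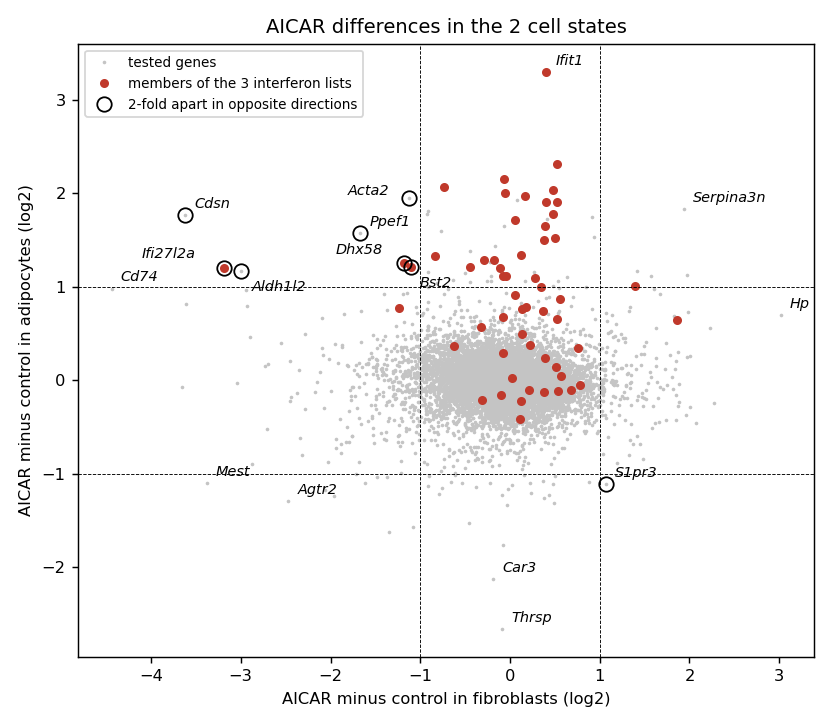
AICAR minus control difference in fibroblasts (horizontal axis) against that in adipocytes (vertical axis), both log2, for the 9969 compared genes, with members of the 3 interferon lists in red and dashed lines at 2-fold. Circles mark the 8 genes 2-fold apart from control in opposite directions, among them Acta2 at 1.95 in adipocytes and -1.13 in fibroblasts. Of the 56 interferon members, 28 lie past 2-fold upward on the vertical axis. On the horizontal axis the 3 lists have medians of 0.13 (interferon-stimulated genes), 0.38 (GTPases) and 0.13 (sensing and signalling). Single members lie far out there, such as Ifi27l2a at -3.18 and Ifit2 at 1.86.

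Adenine adipocytes went through the same 6 days, and their difference uses the same control array, so the values are set side by side and not compared further. AICAR minus control differences were 3.30 for Ifit1, 2.15 for Oasl2 and 1.75 for Ccl2, where adenine minus control differences were 0.46, -0.48 and -1.02. For Acta2 the AICAR difference was 1.95 and the adenine difference -1.21. For Adipoq they were 0.15 with AICAR and 1.54 with adenine. The interferon-stimulated list had a median of 1.12 with AICAR and 0.13 with adenine. The mature adipocyte list had a median of 0.00 with AICAR and 1.00 with adenine.

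Other values lay on the same side of 0. Serpina3n differed by 1.83 with AICAR and 1.34 with adenine, and Ifi27l2a by 1.20 and 1.20. Irgm1 differed by 2.03 with AICAR and 0.99 with adenine. The acute-phase list had a median of 0.70 with AICAR and 1.34 with adenine, fibrillar collagens and matrix -0.17 and -0.72, and stromal progenitor markers -0.22 and -1.24. Genes lower with AICAR had adenine differences on both sides of 0, again against the shared control array. Aldh3a1 differed by -1.52 with AICAR and -1.78 with adenine, Slc23a2 by -1.26 and -1.49, Olfml2b by -1.23 and -1.52, and Cdh13 by -1.23 and -1.45. Grpr stood at -1.23 with AICAR and -1.73 with adenine, Islr at -1.18 and -2.02, S1pr3 at -1.11 and -1.35, Agtr2 at -1.29 and -2.74, and Plekhh2 at -1.15 and -1.29. Thrsp, Mrap, Retn and G0s2 had adenine differences above 0, at 0.43, 1.19, 1.63 and 0.75, and Car3 had -0.83.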

How the data were processed

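Total RNA of each culture was hybridised to 1 Affymetrix whole-transcript array. The values are log2 expression signal as deposited by the authors, made with Transcriptome Analysis Console 1.0.0.234 on the build mm10, per the submitters' processing notes. Folds from dim levels depend on the background correction, which, like the normalization, is not given in the sources used. Groups came from the labels. The title of the control adipocytes names no treatment, and their description gives them as the control. In the platform annotation 21789 probe sets had 1 symbol, 1621 had several and 12146 had none. For 999 symbols with more than 1 probe set the one with the highest mean over 6 arrays was used. Genes were kept from the 50th percentile of these means upward. At that limit Hs3st4 was just inside and Gm10364 just outside, both at 5.87.

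Log2 values of 2 arrays were subtracted, in Python 3.11.15 with pandas 2.3.3, and genes past 2-fold (log2 difference 1) and 1.5-fold were counted. No test is possible with 1 array per condition. The 39 gene lists and the members were chosen with earlier results of these data known, and a median was given for lists with 5 compared members. Named genes were the 20 largest differences each way (passing over small RNAs, chemosensory receptors and clone-named or predicted genes), list members past 2-fold or otherwise the 3 highest and 3 lowest, the 5 genes each way with the largest gap between the states, Ifit1, Rtp4, Acta2, Thrsp, Car3, Aprt, Adk, Hprt and the fat cell markers. Other genes named for their role were chosen after their values were seen. Promoters and their sequences are RefSeq's (GRCm38.p6), matched by symbol. Motifs were searched on both strands, with overlapping matches counted. The subtraction was tested on simulated data. Alternatives were quantile normalization, median centring, a lowess fit on level (span 0.3), no filter, a filter at the 75th percentile, the mean of probe sets and, added after the data were seen, levels raised to the filter floor.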

Additional observations from a re-analysis of the deposited data

Results flagged for a closer look

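Because AICAR was at least 2-fold from its control in opposite directions in the 2 cell states, 8 genes call for a closer look, and this difference between the states was not tested. Each value is a log2 difference of 1 AICAR array and 1 control array. Cdsn was at 1.77 in adipocytes and -3.62 in fibroblasts. Ifi27l2a was at 1.20 in adipocytes and -3.18 in fibroblasts, and Bst2, a further interferon-stimulated gene, at 1.21 and -1.10. The RNA sensor Dhx58 was at 1.26 in adipocytes and -1.18 in fibroblasts. The mitochondrial one-carbon enzyme Aldh1l2 was at 1.17 in adipocytes and -3.00 in fibroblasts, Ppef1 at 1.57 and -1.67, and Acta2 at 1.95 and -1.13. The sphingosine 1-phosphate receptor S1pr3 ran the other way, with -1.11 in adipocytes and 1.07 in fibroblasts. The 7 genes higher in adipocytes and lower in fibroblasts are 11.5% of the higher genes in adipocytes, beside 3.69% of all compared genes that were at least 2-fold lower in fibroblasts. They are 1.90% of the lower genes in fibroblasts, beside 0.612% of all compared genes that were at least 2-fold higher in adipocytes.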

How the results depend on the processing

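No paired analysis was possible because each condition has 1 array, and for the same reason no array could be left out. The counts of 61 higher and 38 lower genes stayed within 1.5 times under 6 of the 7 alternatives. With the filter at the 75th percentile they were 29 and 16, over 4985 genes in place of 9969. Of the 61 and 38 genes, 60 and 35 were still past 2-fold after quantile normalization, 61 and 31 after median centring, 61 and 34 after the lowess fit, and 42 and 38 with levels raised to the floor. Most of the 34 list medians moved by less than 0.1. The exceptions under the filter at the 75th percentile were interferon sensing and signalling (0.044), acute-phase proteins (0.88), purinergic genes (-0.20) and adipogenic transcription factors, whose median turned to 0.093, with fewer genes in each. Without a filter they were interferon-inducible GTPases (1.71), acute-phase proteins (0.40) and mature adipocyte markers (-0.19). With levels raised to the floor, interferon-stimulated genes had 0.78 and the GTPases 1.31. Of the 214 genes the naming rule takes, 65 were past 2-fold and 0 of these changed sign. Of the 149 under 2-fold, 10 changed sign under some alternative, all with differences of at most 0.073 in size. With the mean of probe sets P2rx3 moved by over 1.5-fold (0.19), and with levels raised to the floor 15 genes did. Among the 15, Phf11d, Trim30d, H2-Q4 and Fap went to 0.00, Rsad2 to 0.03, Cd74 to 0.04, Cxcl5 to 0.13, Ifih1 to 0.36, Ppef1 to 0.54 and Irf7 to 0.70. No alternative moved the median of all genes by 0.1.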

Other observations

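Most cell division and amino acid genes lay above 0 in AICAR adipocytes, where 47.4% of all compared genes did. Of 37 cell cycle genes, 31 lay above 0 and 0 were at least 2-fold different (median 0.18), led by the mitotic kinesin Kif20a (0.54), cyclin E1 (Ccne1, 0.50) and the mitotic kinase Aurka (0.46), with Cdk2 at -0.34 the lowest. Of 30 genes of serine and one-carbon metabolism and the integrated stress response, 21 lay above 0 (median 0.26). They were led by Aldh1l2 and by Chac1, a glutathione-degrading enzyme, at 0.67, and Ddit4 (-0.54) and Vldlr (-0.48) were the lowest. With adenine against the same control array the cell cycle list had a median of 0.21 and the serine and stress list 0.41. Ribosome biogenesis had a median of 0.13 over 25 genes, ribosomal proteins 0.06 over 18, lysosome genes 0.08 over 22 and reference genes 0.07 over 10. P2rx3, an ATP-gated channel gene, had a log2 level of 7.81 in AICAR adipocytes and 7.01 in control adipocytes, against 5.66 in AICAR fibroblasts and 8.59 in control fibroblasts, and with the mean of its probe sets the adipocyte difference was 0.19 in place of 0.79. Id3, an inhibitor of helix-loop-helix factors, had 6.96 in AICAR adipocytes and 5.98 in control adipocytes.

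Probe sets outside the comparison also differed. Of 792 probe sets above the floor that the annotation gives several symbols, 16 were at least 2-fold higher in AICAR adipocytes and 0 passed 2-fold downward. Of 3702 above the floor with no symbol, 57 passed 2-fold upward and 18 downward. Among the compared genes the shares were 0.612% upward and 0.381% downward. Rnf213, a large ubiquitin ligase with 2 probe sets, was 1.28 higher in AICAR adipocytes on the log2 scale by one and 1.26 by the other.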
